A study of Mus musculus with 30 samples.

Results

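The step from D10 to D12 in mouse retina organoids, the interval in which the cultures moved to higher oxygen and to a new medium, was described for every gene of the count table. In all, 6 libraries enter it, 3 of D12 and 3 of D10, out of 30 that cover 10 days of differentiation. The D12 organoids had been kept in 20% O2 and in DMEM/F12 with N2 supplement, 1 mM taurine, 500 nM 9-cis retinal and IGF1, an insulin-like growth factor, at 100 ng/ml, since D10. The D10 organoids had spent their culture until then in 5% O2, from D7 in DMEM/F12 with N2 alone, and the labels do not state whether they were lysed before or after the change of D10. Days of culture, oxygen and medium differ together between the groups, so their effects cannot be told apart. All organoids came from 1 wild-type iPSC clone, made from Nrl-GFP mouse fibroblasts with doxycycline-inducible lentiviral Oct3/4, Sox2, Klf4 and c-Myc. Each library held neural retina dissected from pooled organoids, 12 at D12 and 20 at D10, and is called a biological replicate, with no word on separate cultures. The spread behind the p-values was estimated between replicates over all 30 libraries of 10 days, not from D12 and D10 alone. If the replicates share a culture, that is only the spread between samples of a culture.

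Cells sense oxygen through the prolyl hydroxylases, which mark the hypoxia-inducible factors for destruction while oxygen is plentiful; in low oxygen the factors persist and switch on genes of glucose uptake, glycolysis, collagen hydroxylation and blood vessel growth. A retinal such as 9-cis retinal can be oxidised to a retinoic acid, which binds nuclear receptors of the RAR and RXR families on DNA. Among the best known targets of those receptors are the CYP26 enzymes that break retinoic acid down, the retinaldehyde reductase Dhrs3, and Rarb itself. In the optic cup, retinoic acid, oxygen and growth factors act on a sheet of dividing progenitors whose rim and outer layer become ciliary margin and pigment epithelium.

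The 6 libraries held 17397947 to 22090186 estimated counts each, and at least 99.727% of the counts of any of the 30 libraries lay in the 19897 genes tested of 45594 listed. Levels are given as CPM, the standard unit of counts relative to sequencing depth, on library sizes scaled by the trimmed mean of M values (TMM), always in the order replicate 1, 2, 3 of a day. Retinal progenitor genes marked both days: their summed level was 6940 to 8213 CPM at D12 and 6148 to 6575 CPM at D10, and Pax6, a defining gene of optic cup retina, did not pass the test between days. Pluripotency genes summed to 11.9 to 17.5 CPM at D12 and 15 to 26.1 CPM at D10. Of 17 tested, Zfp42 and Dppa5a fell (11.8% called, against 4.41% of all genes), both from low levels. Zfp42 had 0, 0 and 0.0563 CPM at D12 against 0.146, 0.339 and 0.359 CPM at D10. Its call held in 2 of the 6 fits with a library left out. Dppa5a had 0.313, 0.205 and 0.338 CPM at D12 against 1.36, 1.70 and 1.69 CPM at D10, and its call held in all 6. Pou5f1 had 3.57, 4.46 and 3.55 CPM at D12 against 4.57, 9.07 and 5.38 CPM at D10 and did not pass. Tcl1 was at 0 in all D12 libraries. Lens genes summed to 6.03 to 7.33 CPM at D12 and 9.5 to 11.6 CPM at D10. Levels are listed per replicate, while log2 changes and p-values are over 3 replicates unless replicates are named. For some genes and lists the change in replicate 2 is also given apart from that in replicates 1 and 3. Of all reads assigned to Rpl3, a ribosomal protein gene, or its pseudogene copies, the copies held 12 to 24.6% in replicate 2 and 84.2 to 86.5% in replicates 1 and 3. This division falls alike on D12 and D10, and its origin is not given in the sources used here. With replicate 2 as a term in a fit of 18 libraries, 853 of the 878 genes described below were called again. That fit called 2233 of the 18291 genes it tested and holds the same 6 libraries. The overlap is therefore not independent evidence for the calls.

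Over the 3 replicates, 878 genes changed between D12 and D10 at an edgeR quasi-likelihood adjusted p below 0.05, or 4.41% of those tested. Of these, 501 (2.52%) were higher and 377 (1.89%) lower at D12, and 827 were protein coding. The balance between higher and lower depended on the setting. With the 6 libraries fitted alone 342 were higher and 518 lower. With relative log expression factors 307 were higher and 378 lower, and with no scaling beyond library size 117 were higher and 319 lower, on a median over all genes moved by -0.124 on the log2 scale. In 858 of the 878 the 3 D12 libraries lay wholly above or below the 3 D10 libraries. Over all 19897 tested genes, the D12 libraries lay wholly above in 3052 and wholly below in 2756. The calls compare these same 6 libraries, so the separation is not independent evidence for them. With the replicate number as a block, 897 genes were called when all 30 libraries were fitted. When the 6 were fitted alone with that block, 1798 of 16484 tested genes were called, 794 higher and 1004 lower. The list counts given below for that fit stand against this share. Leaving out a single library brought the count to between 133 (without D10 replicate 3) and 492 (without D12 replicate 2), with 381 without D12 replicate 1, 347 without D12 replicate 3, 208 without D10 replicate 1 and 401 without D10 replicate 2.

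In replicates 1 and 3 alone, with 2 libraries a day, 215 genes (1.08%) changed, 120 (0.603%) higher and 95 (0.477%) lower, and 192 of them were among the 878, each in the same direction. That count was 0 to 18 when 1 of the 4 libraries was left out, 0 of them without D10 replicate 3. Replicate 2 has 1 library a day and no test. Its D12 library was 2-fold or more above its D10 library in 1336 genes (6.71%) and 2-fold or more below in 1708 (8.58%). Of the 878 genes called over 3 replicates, 875 (99.7%) moved the same way in replicate 2, which is one of the 3 replicates that made the calls, and 877 did so in replicates 1 and 3. The change in replicate 2 minus the change in replicates 1 and 3 passed the test in 0 genes with edgeR, 632 having an unadjusted p below 0.05. DESeq2 called 9 genes for that difference and limma 4 or 1.

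**Figure D1:**
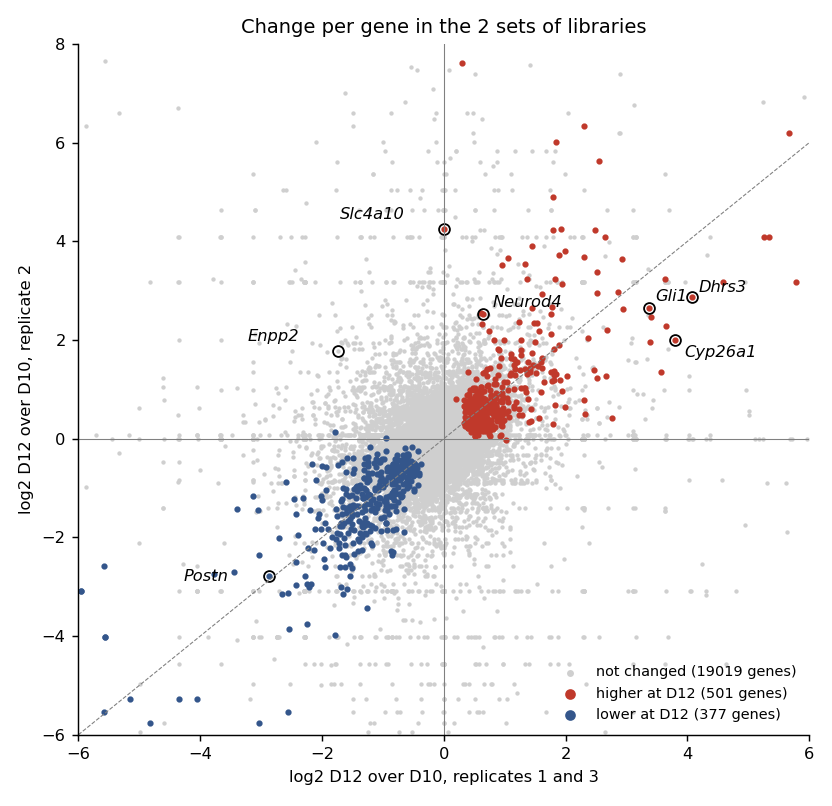
Each point is a tested gene, with its log2 change in replicates 1 and 3 on the x axis and in replicate 2 on the y axis; red and blue mark the 501 genes higher and 377 lower at D12, grey the rest, and 71 genes lie outside the axes. The called genes lie in the upper right and lower left along the dashed line of equal change, while Slc4a10 and Enpp2 stand off it, with a higher change in replicate 2.

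Among the 4 largest rises in called, non-overlapping genes of at least 10 CPM, 3 belonged to enzymes that remove retinoids, and the other was Gli1. Dhrs3 (GRCm38 chromosome 4, 144892827 to 144928209), the reductase that turns retinaldehyde back into retinol, had 14.3, 8.51 and 36.1 CPM at D12 against 1.12, 1.16 and 1.85 CPM at D10. Every D12 library lay above every D10 library, replicate 3 highest, and the gene was 3.83 ± 0.51 higher on the log2 scale (SE, n = 3 a day, edgeR adjusted p = 0.00043). The change was 4.08 in replicates 1 and 3 and 2.86 in replicate 2. Cyp26a1, which hydroxylates retinoic acid for disposal, reached 27.8, 30.1 and 81.9 CPM at D12 against 5.2, 7.52 and 2.67 CPM at D10. Its groups did not overlap, and it was 3.18 ± 0.72 higher (log2, edgeR adjusted p = 0.016), with 3.79 in replicates 1 and 3 and 2 in replicate 2. The edgeR adjusted p was 0.0765 without D12 replicate 3, 0.0702 without D10 replicate 1 and 0.11 without D10 replicate 3, so the call rests on each of these libraries. Cyp26b1, its paralog, had 11.5, 4.77 and 27.7 CPM at D12 against 1.85, 1.21 and 1.9 CPM at D10, with no overlap. It rose by 3.14 ± 0.52 (log2, edgeR adjusted p = 0.0024), and replicate 2 was again the lowest D12 library.

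Cyp26c1, the remaining CYP26 enzyme, had 3.13, 1.79 and 5.69 CPM at D12 against 0.876, 1.26 and 0.871 CPM at D10. It passed narrowly, at 1.81 ± 0.53 (log2, edgeR adjusted p = 0.0499), and did not pass with relative log expression factors, with library size alone, without a filter or when any one of 5 of the 6 libraries was left out. Rarb, the receptor gene, stood at 33.7, 19.6 and 31.9 CPM at D12 against 14.2, 7.27 and 12.6 CPM at D10. All of its D12 libraries lay above the D10 libraries, replicate 2 lowest on either day, but its change of 1.33 ± 0.48 did not pass (log2, edgeR adjusted p = 0.104). Of the 36 retinoid genes tested, 4 rose, 2 fell and 30 did not pass (16.7% called, against 4.41% of all genes), with a median of 0 on the log2 scale, the same as over all genes. The 2 that fell act in the visual cycle: Rlbp1, a retinaldehyde-binding protein of pigment epithelium and Müller glia, had 13.3, 5.74 and 14.2 CPM at D12 against 36.4, 33.5 and 43.3 CPM at D10 (log2 -1.77 ± 0.40, edgeR adjusted p = 0.015). Rdh5, a retinol dehydrogenase, was 0.73 lower (log2, edgeR adjusted p = 0.045), and with the replicate block in the 6-library fit its p was 0.051 with edgeR. Aldh1a1, the most abundant gene of the list and a retinaldehyde dehydrogenase of the dorsal retina, had 4895, 4983 and 6490 CPM at D12 against 5518, 5852 and 5074 CPM at D10, and these overlapped. The genes for the carriers Crabp1 and Crabp2 and the uptake receptor Stra6 did not pass either. With the replicate block in the 6-library fit, 11 of the 36 were called.

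RAR and RXR pairs bind a direct repeat of a 6-base half-site with 5 bases between. The promoters below, from RefSeq on GRCm38.p6, are shown because they carry such a repeat close to the start of a gene of the retinoid list, Cyp26a1 having passed the test and Rarb not. Each is the 250 bases before the gene's start, 5′ to 3′ on the gene's strand, with the repeat in capitals. It begins 32 bases before the start in Cyp26a1 and 53 bases before it in Rarb.

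Cyp26a1 (chr19:37697558-37697807, plus strand): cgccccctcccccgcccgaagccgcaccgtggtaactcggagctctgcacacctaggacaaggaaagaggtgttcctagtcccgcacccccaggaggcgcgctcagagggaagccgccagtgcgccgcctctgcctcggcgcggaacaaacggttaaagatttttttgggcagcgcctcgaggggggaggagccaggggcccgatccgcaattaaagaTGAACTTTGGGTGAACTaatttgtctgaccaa

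Rarb (chr14:16575477-16575726, minus strand): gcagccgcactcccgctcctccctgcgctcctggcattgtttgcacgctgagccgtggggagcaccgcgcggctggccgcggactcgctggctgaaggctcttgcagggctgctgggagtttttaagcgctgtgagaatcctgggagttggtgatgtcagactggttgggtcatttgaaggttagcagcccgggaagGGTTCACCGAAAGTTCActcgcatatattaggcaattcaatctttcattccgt

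In Cyp26a1 the repeat lies on the opposite strand and so reads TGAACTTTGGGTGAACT here. The exact repeat, AGGTCA followed by any 5 bases and AGGTCA again, searched on both strands, was in 3 of 32851 promoters (0.00913%) and in none of the retinoid list. The wider search was chosen after these promoters had been read: each half-site could be AGGTCA or AGTTCA, or else GGTTCA or GGGTCA, on either strand and with 5 bases between. It matched 29 promoters (0.0883%), of 28 genes. Among the 28 retinoid list genes with a promoter in the table, 2 matched, namely Cyp26a1 and Rarb. Dhrs3, Cyp26b1 and Cyp26c1 had no match in this window.

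Gli1, the transcription factor that Hedgehog signalling switches on, had 22.4, 5.49 and 6.14 CPM at D12 against 1.22, 0.873 and 1.54 CPM at D10. Replicate 1 was by far the highest, yet the lowest D12 library was still above all D10 libraries, and the rise of 3.23 ± 0.48 passed (log2, edgeR adjusted p = 0.000825). It stayed past the threshold whichever library was left out. The other 7 genes of that pathway listed here were then looked up, a choice made after the value of Gli1 was seen, and none of them passed. Ptch1, the receptor that is itself a Hedgehog target, had 56.4, 45.3 and 35.9 CPM at D12 and 48.1, 44.5 and 44.8 CPM at D10, a log2 change of 0.00 ± 0.19. Hhip, another target, differed by 0.47 ± 0.53 (log2, edgeR adjusted p = 0.656), and Shh, the ligand, was below 1 CPM in all 6 libraries. Rnf144b, a ubiquitin ligase gene, had 14.7, 15.9 and 13.6 CPM at D12 against 2.53, 2.04 and 2.41 CPM at D10 and had the lowest adjusted p among the genes named here, 0.000168 with edgeR, at 2.66 ± 0.33 (log2). Its 3 D12 libraries lay close together, replicate 2 included. Other large rises were Cldn1, of tight junctions, at 2.46, Dio3, the deiodinase that inactivates thyroid hormone, at 1.66 (edgeR adjusted p = 0.052 with the block in 30 libraries), Gria1, a glutamate receptor subunit, at 1.57, and Slc30a1, a zinc exporter, at 1.46 on the log2 scale.

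**Figure D2:**
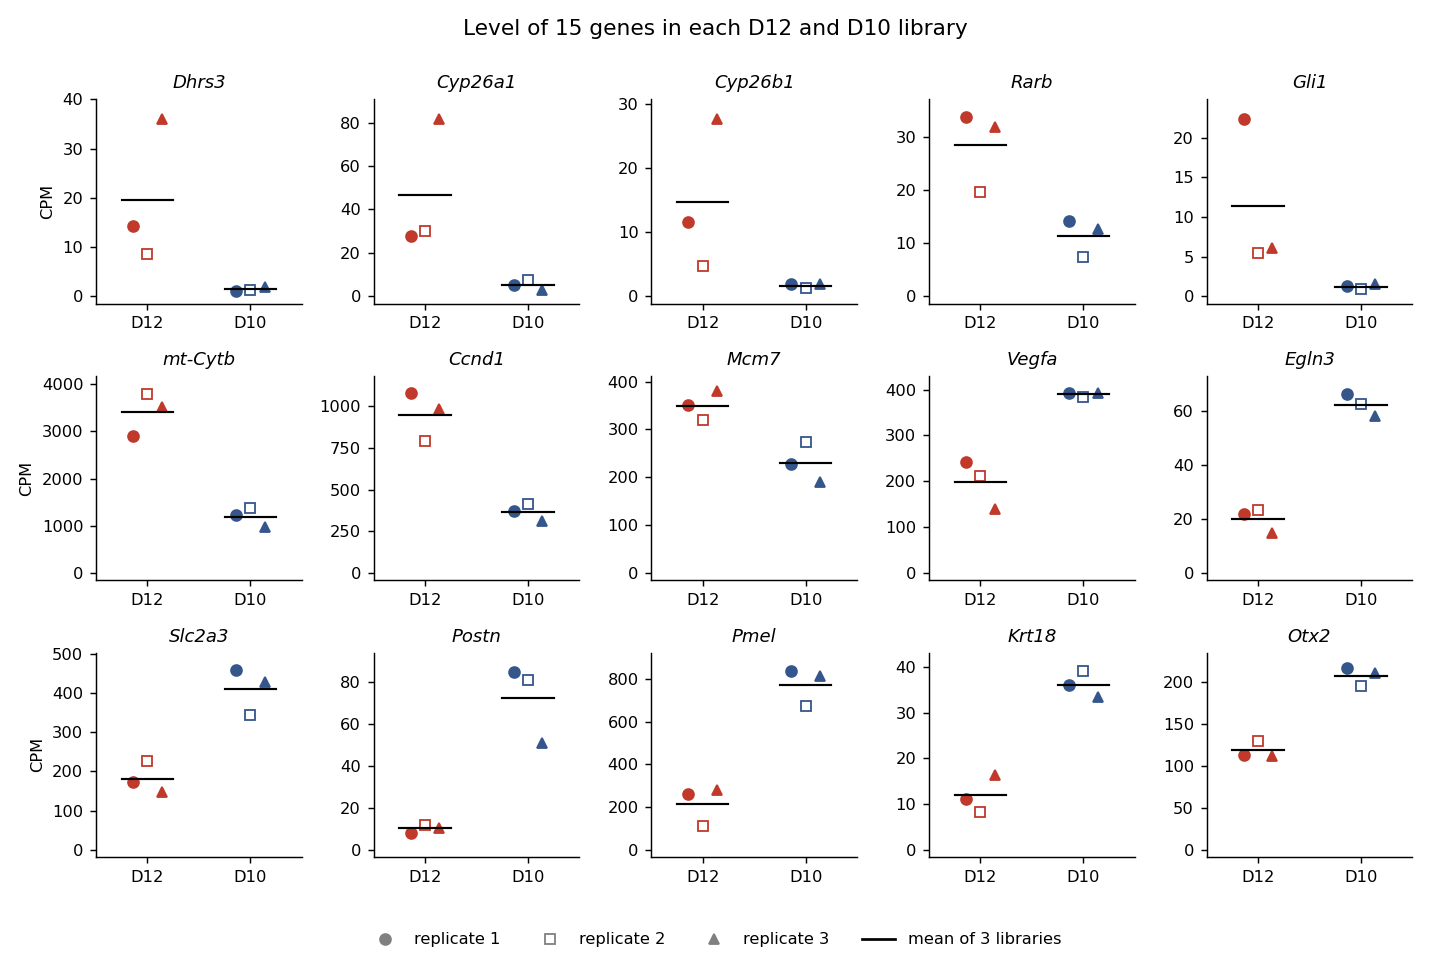
Level in CPM of 15 genes in the D12 (red, left) and D10 (blue, right) libraries, with the replicates as circle, open square and triangle and the mean of 3 as a line. In each of the 15 panels the D12 and D10 libraries do not overlap, and replicate 2 is the lowest D12 library for Dhrs3, Cyp26b1, Rarb, Gli1, Ccnd1, Mcm7, Pmel and Krt18.

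Transcripts of the mitochondrial genome rose together. Of its 13 protein genes, 11 rose and none fell (84.6%, against 2.52% of all genes higher), with a median of 1.44 on the log2 scale against 0 over all genes. mt-Cytb, of complex III, had 2895, 3803 and 3521 CPM at D12 against 1218, 1373 and 969 CPM at D10 (log2 1.52 ± 0.22, edgeR adjusted p = 0.00058). mt-Co1, of complex IV, had 7393, 13726 and 10576 CPM at D12 against 4416, 5618 and 3993 CPM at D10, a rise of 1.18 ± 0.25 (log2, edgeR adjusted p = 0.011). For both genes the D12 libraries lay above all D10 libraries. mt-Atp8 and mt-Nd3 did not pass: mt-Nd3 had 47.3, 605 and 173 CPM at D12 against 29.3, 97.8 and 28.9 CPM at D10, and its groups overlapped. With the replicate block in the 6-library fit all 13 were called, mt-Atp8 with an edgeR adjusted p of 0.019. The median was 1.37 in replicates 1 and 3, where 6 genes passed, and 1.47 in replicate 2. Leaving out a library left 4 (without D10 replicate 3) to 12 calls, and it was 7 without D10 replicate 1 or without D12 replicate 2.

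The 13 genes summed to 25850, 48631 and 39648 CPM at D12 against 13705, 17299 and 12211 CPM at D10. As a share of all counts, mitochondrially encoded RNA took 2.68 to 5.03% at D12 and 1.4 to 1.9% at D10. That share also marks RNA quality and cell handling in libraries of this kind, and its part in the result was not tested; the labels give an RNA integrity number above 8.0 for all libraries. Of 53 nuclear genes of the respiratory complexes, 3 rose and none fell (Uqcrc2, Atp5h and Cox6b1, by 0.46 to 0.49 on the log2 scale), or 5.66% against 2.52% of all genes higher, 50 had a positive sign, and the median was 0.32. Cox6b1 had an edgeR adjusted p of 0.056 with the block in 30 libraries. None of the 3 calls was made with relative log expression factors or with library size alone, while the 6-library fit with the replicate block made 15.

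Some of the genes that low oxygen switches on fell. Of 44 hypoxia targets, 7 fell and none rose (15.9%, against 1.89% of all genes lower), 39 had a negative sign, and the median was -0.59 on the log2 scale. Vegfa (GRCm38 chromosome 17, 46016993 to 46032377), the vessel growth factor, had 241, 212 and 139 CPM at D12 against 392.5, 384 and 393 CPM at D10 (log2 -0.98 ± 0.24, edgeR adjusted p = 0.023). Slc2a3, a glucose transporter, had 173, 226 and 146 CPM at D12 against 460, 344 and 428 CPM at D10 (log2 -1.18 ± 0.29, edgeR adjusted p = 0.027). Egln3, itself an oxygen-sensing prolyl hydroxylase, had 21.7, 23.3 and 14.7 CPM at D12 against 66.3, 62.5 and 58.2 CPM at D10 (log2 -1.65 ± 0.42, edgeR adjusted p = 0.029). For all 3 genes the highest D12 library was below the lowest D10 library. The other 4 were Hk2, the hexokinase that traps glucose in the cell, at -1.14 (edgeR adjusted p = 0.055 with the block in 30 libraries), P4ha1 and P4ha2, which hydroxylate collagen, at -0.85 and -1.08, and Bhlhe40, a transcriptional repressor, at -2.10 on the log2 scale. Its paralog Bhlhe41 was not on the list and fell by 1.88 (edgeR adjusted p = 0.014).

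The values of the list differed in size between the sets of libraries. Its median was -0.85 in replicates 1 and 3 and -0.26 in replicate 2, where 7 members were 2-fold or more lower and 2 were 2-fold or more higher. In replicates 1 and 3 edgeR called 1 of the 44, Slc2a3 (adjusted p = 0.0465). Vegfa and Egln3 had edgeR adjusted p of 0.0808 and 0.0928 there. Bnip3, a mitophagy receptor, had 189, 313 and 167 CPM at D12 against 417, 319 and 397 CPM at D10, so that it was -1.19 on the log2 scale in replicates 1 and 3 and -0.03 in replicate 2; it did not pass (edgeR adjusted p = 0.269). Ndrg1, a stress-response gene, had 23, 37.6 and 21.6 CPM at D12 and 22.7, 14.7 and 21 CPM at D10, a log2 change of 0.03 in replicates 1 and 3 and 1.36 in replicate 2. The difference between the library sets was called for neither gene. Adm, Ddit4 and Car9 were lower by 2.37, 1.71 and 1.04 on the log2 scale without passing. Calls numbered 0 without D12 replicate 3, D10 replicate 1 or D10 replicate 3, 1 without D12 replicate 1, 3 without D10 replicate 2 and 5 without D12 replicate 2. With the replicate block in the 6-library fit 24 of the 44 were called. Of 10 genes of the factors and their oxygen sensors, Egln3 was the 1 that passed. Hif1a, the best known of the factors, had 174, 308 and 162 CPM at D12 and 151, 188 and 146 CPM at D10, which overlapped.

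Hypoxia-inducible factors bind a core of ACGTG or GCGTG. Of the 7 genes that fell, 5 have a promoter in the RefSeq table, and all 5 hold the core on one strand or the other within 250 bases before a start. The 3 with the largest fall are shown, cores in capitals, on GRCm38.p6 and 5′ to 3′ on the gene's strand.

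Egln3 (chr12:54203875-54204124, minus strand): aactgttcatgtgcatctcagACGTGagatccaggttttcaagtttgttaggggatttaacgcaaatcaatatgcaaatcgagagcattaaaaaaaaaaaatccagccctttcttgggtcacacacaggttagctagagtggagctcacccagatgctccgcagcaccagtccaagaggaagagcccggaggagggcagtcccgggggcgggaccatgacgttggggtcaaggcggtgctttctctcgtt

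Hk2 (chr6:82774455-82774704, minus strand): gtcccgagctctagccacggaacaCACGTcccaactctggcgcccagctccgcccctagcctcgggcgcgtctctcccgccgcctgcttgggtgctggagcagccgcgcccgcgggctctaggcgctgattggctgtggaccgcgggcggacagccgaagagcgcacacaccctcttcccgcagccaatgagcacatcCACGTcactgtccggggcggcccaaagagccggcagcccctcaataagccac

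P4ha2 (chr11:54100674-54100923, plus strand): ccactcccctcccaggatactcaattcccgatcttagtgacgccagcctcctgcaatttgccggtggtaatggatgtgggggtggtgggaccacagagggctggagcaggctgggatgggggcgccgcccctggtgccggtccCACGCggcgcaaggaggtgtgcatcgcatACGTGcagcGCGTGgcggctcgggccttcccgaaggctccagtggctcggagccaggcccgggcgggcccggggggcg

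Such a short core is common: 38.6% of all 32851 promoters and 51.4% of those of tested genes held it, against 78.4% of the promoters of the hypoxia list. The 5 genes have 6 promoters, of which 5 (83.3%) held it. Counted by gene, it was in 7480 of 13132 tested genes with a promoter and in 32 of 36 such genes of the hypoxia list. The list was drawn up from known targets, so its share is a property of the list and not of the change.

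Of 30 glycolysis genes, 4 fell, 1 rose and 25 did not pass (16.7% called, against 4.41% of all genes), with a median of -0.36 on the log2 scale. Eno2, a neuronal enolase, had 31.4, 27.1 and 28.7 CPM at D12 against 82.3, 54.4 and 80.7 CPM at D10 (log2 -1.32 ± 0.26, edgeR adjusted p = 0.0062) and passed whichever library was left out. Eno3, the muscle form, was 0.65 lower, and Slc2a3 and Hk2 are the other 2. Mpc1, which carries pyruvate into mitochondria, was the gene that rose, with 17.9, 19.3 and 16.5 CPM at D12 against 13.1, 10.8 and 12.5 CPM at D10 (log2 0.56 ± 0.14, edgeR adjusted p = 0.031, and 0.065 with the block in 6 libraries). The abundant enzymes did not pass, Gapdh at -0.06, Pkm at -0.21 and Ldha at -0.36 on the log2 scale. Of the 5 calls, 1 was left without D12 replicate 1, D10 replicate 1 or D10 replicate 3, and the 6-library fit with the replicate block made 13.

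**Figure D3:**
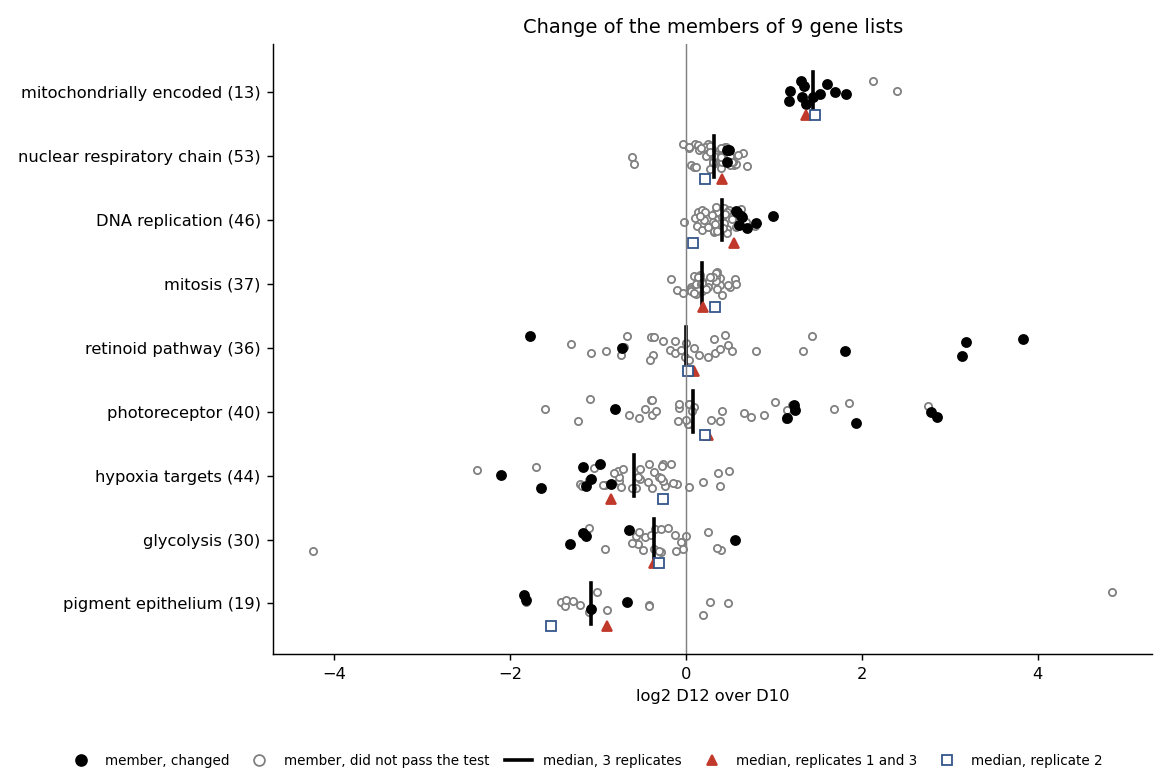
Each point is the log2 change of a member of 1 of 9 gene lists (number tested in brackets), filled where it passed the test; the bar is the median over 3 replicates, the triangle that of replicates 1 and 3 and the open square that of replicate 2. Mitochondrially encoded genes lie to the right at a median of 1.44 and hypoxia targets to the left at -0.59, and for DNA replication the replicate 2 median of 0.08 is near 0.

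Ccnd1 and some genes of DNA replication rose. Ccnd1, cyclin D1, which drives retinal progenitors into the cell cycle, had 1077, 789 and 984 CPM at D12 against 368, 411 and 310 CPM at D10. The groups were far apart, replicate 2 being the lowest at D12 and the highest at D10, and the gene rose by 1.39 ± 0.30 (log2, edgeR adjusted p = 0.012); only without D10 replicate 3 did it not pass (0.0856). Of 46 DNA replication genes, 8 rose and none fell (17.4%, against 2.52% of all genes higher), with 45 of positive sign and a median of 0.41 on the log2 scale. Mcm7, of the helicase that opens DNA, had 351, 320 and 379 CPM at D12 against 228, 275 and 189 CPM at D10 (log2 0.60 ± 0.12, edgeR adjusted p = 0.0095). Pcna, the sliding clamp, had 367, 415 and 420 CPM at D12 against 239, 255 and 198 CPM at D10 (log2 0.80 ± 0.20, edgeR adjusted p = 0.027). Neither gene's groups overlapped, and in Mcm7 the 2 replicate 2 libraries were the closest pair. The other 6 were Rfc3, Rfc4 and Rfc5 of the clamp loader, Orc6 of the origin complex, the flap nuclease Fen1 and cyclin E2 (Ccne2), at 0.57 to 0.98 on the log2 scale, of which Ccne2 had an edgeR adjusted p of 0.051 with the block in 30 libraries.

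The median of the replication list was 0.55 in replicates 1 and 3, where 5 genes passed, and 0.08 in replicate 2. Calls numbered 0 without D10 replicate 3, 2 without D10 replicate 1 and 3 to 7 without another library, 2 with library size alone, and 14 with the replicate block in the 6-library fit. Of 37 mitosis genes edgeR and DESeq2 each called 0. With edgeR 8 had an unadjusted p below 0.05, against 4310 of all 19897 genes. The median of the list was 0.18 (0.20 in replicates 1 and 3, 0.33 in replicate 2), and Top2a and Mki67 were 0.30 and 0.34 higher on the log2 scale. With the block in the 6-library fit 4 of the 37 were called, against 1798 of 16484 over all genes. Of 22 cell cycle inhibitors and p53 targets edgeR called 0, with 3 at an unadjusted p below 0.05. DESeq2 called 2 of them, against 1593 of all 19897 genes.

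Of 19 pigment epithelium genes, 4 fell and none rose (21.1%, against 1.89% of all genes lower), at a median of -1.07 on the log2 scale, and 14 had all D12 libraries below all D10 libraries, against 13.9% of all tested genes. Pmel, which builds melanosome fibrils, had 259, 111 and 278 CPM at D12 against 836, 673 and 815 CPM at D10 (log2 -1.84 ± 0.51, edgeR adjusted p = 0.043). Dct, a melanin enzyme, had 81.2, 59.6 and 113 CPM at D12 against 180, 172 and 181 CPM at D10 (log2 -1.07 ± 0.28, edgeR adjusted p = 0.033). Replicate 2 was the lowest D12 library for both. Slc45a2 and Slc24a5, transporters of the melanosome, were 1.82 and 0.67 lower on the log2 scale, and Slc24a5 had an edgeR adjusted p of 0.052 with the block in 30 libraries. Mitf, the master regulator of pigment cells, had 32, 16.3 and 31 CPM at D12 against 54, 62.2 and 66.3 CPM at D10 and did not pass (edgeR adjusted p = 0.236). In bulk RNA a smaller number of pigment cells and less RNA per cell cannot be told apart, and the neural retina was dissected by hand at either day. In replicates 1 and 3 edgeR called 0 of the 19, at a median of -0.9 on the log2 scale, and the median in replicate 2 was -1.53. The 4 calls came to 0 to 2 when any 1 library was left out and to 12 with the block in the 6-library fit.

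Of 28 genes of optic patterning, 3 fell and none rose (10.7%, against 1.89% of all genes lower), at a median of -0.07 on the log2 scale, and 1 or 2 calls were left when a library was left out. Pax2, which marks the optic stalk, had 2.95, 1.44 and 2.2 CPM at D12 against 13.6, 6.69 and 10.5 CPM at D10 (log2 -2.22 ± 0.48, edgeR adjusted p = 0.012). Wnt2b, a ligand made at the margin and in pigment epithelium, had 6.52, 5.23 and 5.58 CPM at D12 against 11.4, 21.3 and 20.9 CPM at D10 (log2 -1.63 ± 0.28, edgeR adjusted p = 0.0027). The groups did not overlap in either gene, and Msx2, of the ciliary margin, was 1.38 lower (log2). Postn, the matrix protein periostin, had the largest fall among called, non-overlapping genes of at least 10 CPM, with 8.04, 11.8 and 10.6 CPM at D12 against 84.7, 81 and 50.8 CPM at D10 (log2 -2.83 ± 0.42, edgeR adjusted p = 0.000825). D10 replicate 3 was the lowest of that day, and the call held whichever library was left out. In the transcript table, Postn-002 had 3.39 CPM in D12 replicate 2 and almost none in D12 replicates 1 and 3, against 55.9, 47 and 13.5 CPM at D10. Krt18, an epithelial keratin, had 11.2, 8.26 and 16.3 CPM at D12 against 36, 39.2 and 33.4 CPM at D10 (log2 -1.60 ± 0.22, edgeR adjusted p = 0.00045).

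Col8a1, a basement membrane collagen, Tnfaip3, an inhibitor of NF-kappa-B, Ppp1r3c, which promotes glycogen storage, and the mechanosensitive channel gene Piezo2 were 2.04, 2.44, 2.18 and 1.99 lower on the log2 scale. Over 3 replicates Postn was the only 1 of 15 fibroblast genes called (6.67%, against 1.89% of all genes lower). In 7 of the 15 all D12 libraries lay below all D10 libraries, against 13.9% of all tested genes. The median was -0.52 on the log2 scale, with -1.19 in replicates 1 and 3 and 0.13 in replicate 2. The fibroblast list summed to 536 to 582 CPM at D12 and 710 to 747 CPM at D10. Genes of other brain regions summed to 63.6 to 84.8 CPM at D12 and 97.5 to 259 CPM at D10. Of 26 tested, Pax7 and Rspo1 fell and none rose (7.69%, against 1.89% of all genes lower), and 20 had a negative sign. The median of that list was -1.36 on the log2 scale, with -1.68 in replicates 1 and 3 and -0.38 in replicate 2. Rspo1, an enhancer of Wnt signalling, had 7.77, 0.872 and 3.15 CPM at D12 and 17.2, 7.66 and 47.8 CPM at D10, so its groups overlapped and D10 replicate 3 stood highest; the edgeR adjusted p was 0.177 without that library and 0.0642 without D12 replicate 3. The part of such cells in the other results was not tested.

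Some photoreceptor genes rose, most of them from low levels. Of 40 genes, 6 rose and 1 fell (17.5% called, against 4.41% of all genes), with a median of 0.08 on the log2 scale. In replicates 1 and 3 alone 0 of the 6 passed with edgeR. The log2 change in replicate 2 was 4.26 for Pdc, 2.19 for Prdm1 and 2.01 for Cdhr1, and in replicates 1 and 3 it was 1.93 for Pdc, 0.75 for Prdm1 and 0.82 for Cdhr1. Pdc, phosducin, had 4.42, 9.38 and 1.97 CPM at D12 against 0.827, 0.485 and 0.871 CPM at D10 (log2 2.85 ± 0.48, edgeR adjusted p = 0.0026). Gngt2, the cone transducin gamma subunit, had 5.9, 5.13 and 2.65 CPM at D12 against 0.73, 0.485 and 0.769 CPM at D10 (log2 2.79 ± 0.51, edgeR adjusted p = 0.0043). Prdm1, which holds cells to the photoreceptor fate, had 32.5, 41.8 and 18 CPM at D12 against 15.6, 9.17 and 14.7 CPM at D10 (log2 1.23 ± 0.28, edgeR adjusted p = 0.016). In each, all D12 libraries were above all D10 libraries and replicate 3 was the lowest D12 library. Cdhr1, Pde6c and Impg2, of photoreceptor outer segments and matrix, also rose, Pde6c and Impg2 with edgeR adjusted p of 0.064 and 0.089 under the block in 6 libraries, and Crx, Thrb and Rorb did not pass. Otx2, needed for both pigment epithelium and photoreceptors, fell, with 113, 130 and 112 CPM at D12 against 217, 195 and 211 CPM at D10 (log2 -0.81 ± 0.16, edgeR adjusted p = 0.0069).

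Neurod4, a proneural factor, had 19.8, 48.5 and 16.3 CPM at D12 against 10.9, 8.44 and 12.199 CPM at D10. The groups did not overlap and D12 replicate 2 stood highest, so that the gene was 2.52 higher on the log2 scale in replicate 2 and 0.65 in replicates 1 and 3. Over 3 replicates it passed (edgeR adjusted p = 0.025), but its edgeR adjusted p was 0.157 without D12 replicate 2, 0.0768 without D10 replicate 1, 0.0804 without D10 replicate 2 and 0.08 without D10 replicate 3. Of 26 amacrine and horizontal cell genes, 3 rose and 2 fell (19.2% called, against 4.41% of all genes), with 0 called by edgeR in replicates 1 and 3 and 1 left without D12 replicate 2 or D10 replicate 3. The log2 change of Prdm13 was 4.23 in replicate 2 and 1.80 in replicates 1 and 3. Prdm13 and Ptf1a, which direct those fates, rose from low levels, Prdm13 having 4.11, 4.67 and 1.8 CPM at D12 against 0.632, 0.242 and 1.08 CPM at D10. Gad2 also rose, while Lhx1 and Slc6a9 fell, at -1.865 and -0.679 on the log2 scale. Of the 26, 16 had a negative sign and 10 a positive one, at a median of -0.33. Of 40 ganglion cell genes edgeR and DESeq2 each called 0. With edgeR 4 had an unadjusted p below 0.05, against 4310 of all 19897 genes. Of the 40, 32 had a positive sign and the median was 0.31 on the log2 scale. The 6-library fit with the replicate block called 9, against 1798 of 16484 over all genes. The progenitor list had 2 of 36 called, Ccnd1 and Optc, or 5.56% against 4.41% of all genes. Optc, for opticin of the ciliary body, had 11.1, 15.7 and 15.7 CPM at D12 against 4.77, 5.58 and 4.92 CPM at D10.

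IGF1 and taurine were also in the medium of D12. Of 30 IGF and insulin genes edgeR called 0, at a median of -0.21 on the log2 scale. With edgeR 8 had an unadjusted p below 0.05, against 4310 of all 19897 genes. DESeq2 called 3 of the 30, against 1593 over all genes. Igf1r had 126, 119 and 135 CPM at D12 against 173, 170 and 163 CPM at D10 (log2 -0.41 ± 0.15, edgeR adjusted p = 0.107). The block in the 6-library fit called 7 of the list, against 1798 of 16484 over all genes. Slc6a6, the taurine transporter, had 107, 125 and 143 CPM at D12 against 222, 216 and 213 CPM at D10 (log2 -0.80 ± 0.20, edgeR adjusted p = 0.028), and Csad, an enzyme of taurine synthesis, was 0.59 lower (log2, edgeR adjusted p = 0.045, and 0.050 with the block in 30 libraries). The call of Slc6a6 was lost when any 1 of 5 libraries was left out, and that of Csad with any of the 6. Of 45 oxidative stress genes, Srxn1, Sod1 and Gclc rose and Hmox1 fell (8.89% called, against 4.41% of all genes). In replicates 1 and 3, and without any one library but D12 replicate 2, edgeR called 0 of them, and Sod1 and Gclc did not pass with relative log expression factors. Srxn1, which repairs peroxiredoxins, had 30.9, 21.3 and 27 CPM at D12 against 12, 14.1 and 12.7 CPM at D10 (log2 1.03 ± 0.26, edgeR adjusted p = 0.027), while haem oxygenase Hmox1 had 18.8, 20.4 and 18.6 CPM at D12 against 34.3, 32 and 31.5 CPM at D10 (log2 -0.76 ± 0.20, edgeR adjusted p = 0.030). Neither gene's groups overlapped. Of 27 amino acid stress genes 3 rose (11.1%, against 2.52% of all genes higher), among them Asns and the amino acid carrier Slc7a5, by 0.71 and 0.77 on the log2 scale, and 0 passed without D10 replicate 3.

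Set in the 10-day course, the step took different forms. Dhrs3 averaged 1.17 CPM at D7, 1.38 CPM at D10, 19.6 CPM at D12, 19.5 CPM at D15 and 14.8 CPM at D18, so that its D15 and D18 levels were near that of D12. Cyp26a1 averaged 0.908, 5.13, 46.6, 27.9 and 13 CPM on the same 5 days, highest at D12. Vegfa averaged 60.5, 389.9, 197, 390.5 and 419 CPM, and Egln3 12.4, 62.3, 19.9, 53.7 and 52.2 CPM, so that both were lower at D12 than on the days either side of it. mt-Cytb ran the other way, at 2357, 1187, 3406, 1933 and 2258 CPM, with D10 the lowest of the 5 days and D12 the highest. Pmel averaged 598, 774, 216, 53.9 and 24.4 CPM and Ccnd1 94.4, 363, 950, 965 and 862 CPM, so that Pmel was lower again at D15 and Ccnd1 was near its D12 level. These are levels on each day, and steps other than D12 against D10 were not tested here.

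**Figure D4:**
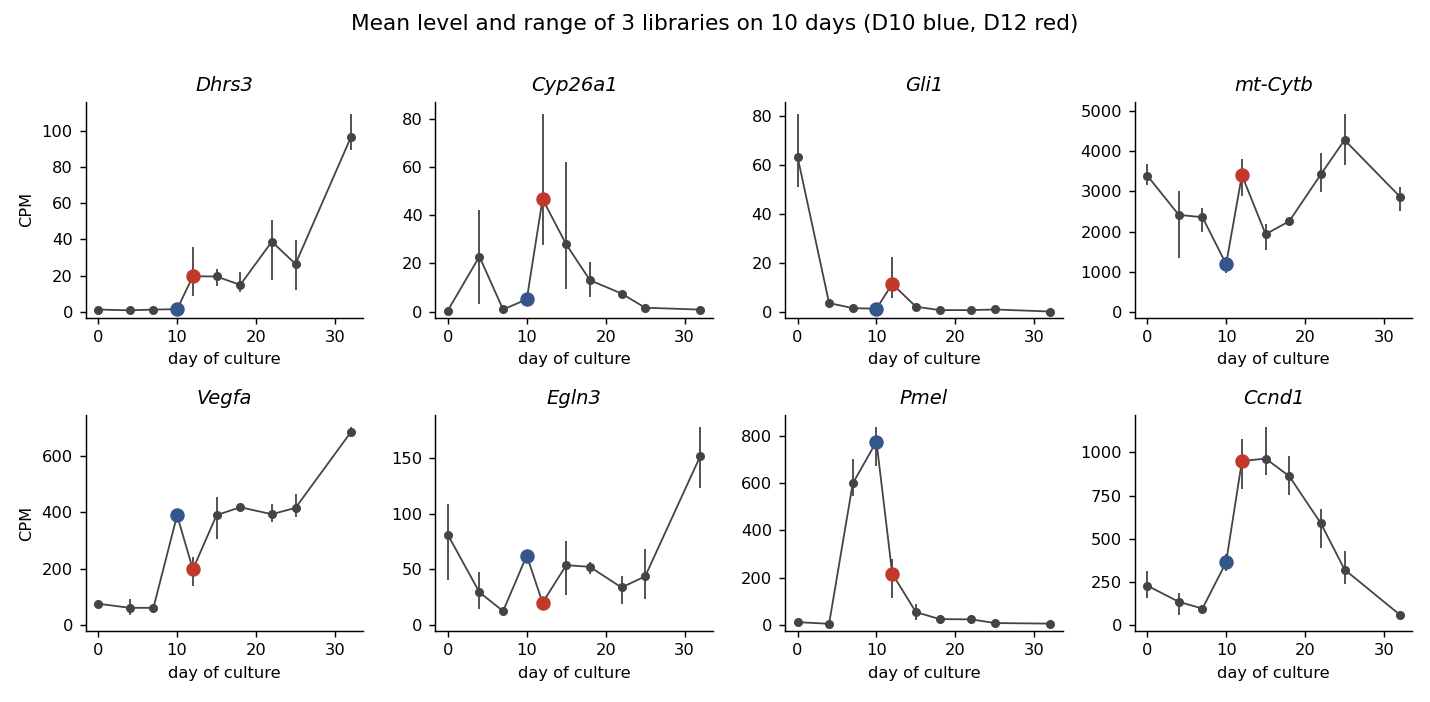
Mean level in CPM (point) and range of 3 libraries (bar) of 8 genes on 10 days of culture, with D10 in blue and D12 in red. Vegfa and Egln3 dip at D12 and mt-Cytb peaks there relative to D10 and D15, while Dhrs3 and Ccnd1 stay up at D15 and Pmel is lower still.

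One D12 library held a further group of genes. Ttr, the thyroid hormone carrier made by choroid plexus and pigment epithelium, had 41.1, 521 and 3.66 CPM at D12 and 8.46, 2.72 and 8.46 CPM at D10. D12 replicate 2 stood far above the other 5 libraries, and the groups overlapped. Further genes known from choroid plexus were then looked up, after these values had been seen. Htr2c, a serotonin receptor, had 0.581, 10.7 and 0 CPM at D12 and at most 0.256 CPM at D10, and Kcne2, a potassium channel subunit, had 0.849, 8.92 and 0.169 CPM at D12 and at most 0.291 CPM at D10. Slc4a10, a bicarbonate carrier, had 0.893, 9.38 and 1.01 CPM at D12 and 0.681, 0.485 and 1.23 CPM at D10. Enpp2, autotaxin, had 5.4, 55.3 and 4.73 CPM at D12 and 19.2, 16.1 and 14.5 CPM at D10, so that it was 1.73 lower in replicates 1 and 3 and 1.78 higher in replicate 2 on the log2 scale. Aqp1, Clic6 and Calml4 were likewise highest in D12 replicate 2, whereas Folr1 was not. Htr2c, Kcne2 and Slc4a10 are among the 878 genes although a single library carries them. Their part in the other values of D12 replicate 2 was not tested.

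**Figure D5:**
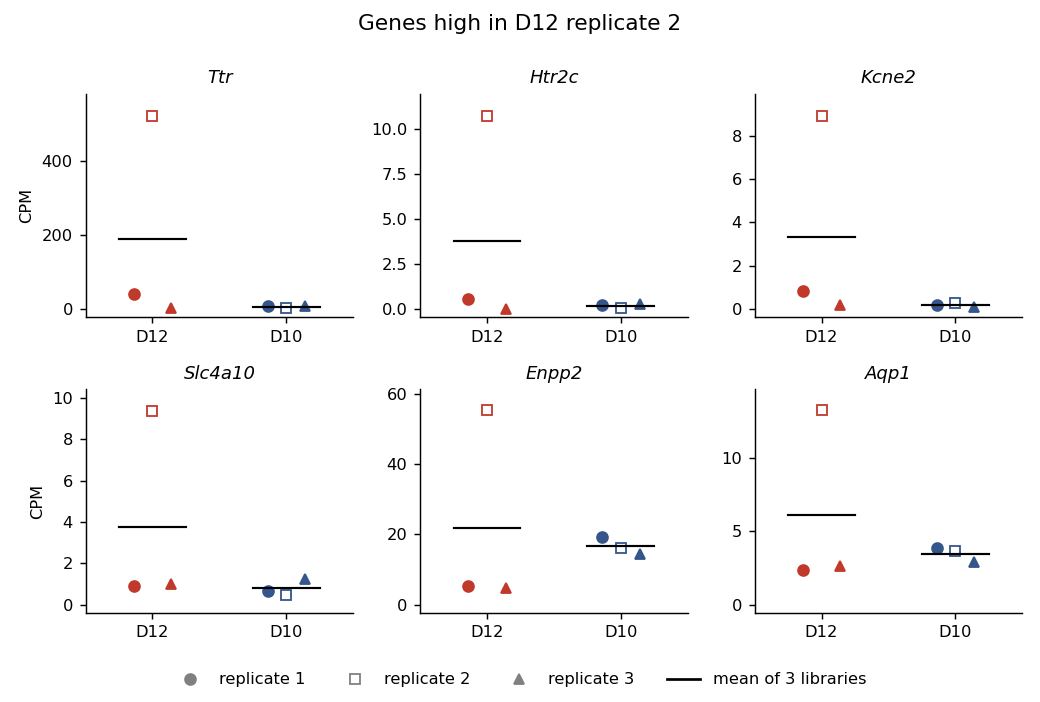
Level in CPM of 6 genes in the D12 (red, left) and D10 (blue, right) libraries, symbols by replicate and the mean of 3 as a line. In each panel D12 replicate 2, the open red square, stands above the other 5 libraries, with Ttr at 521 CPM.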

How the data were processed

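Estimated counts per gene and per transcript for 30 libraries were deposited by the authors. The submitters' notes name Trimmomatic 0.36, kallisto 0.42.4, GRCm38.p4 and, without a version, edgeR. The annotation release and the summing of transcripts into genes are not given in the sources used here. The authors also deposited a table of scaled CPM, treated as a signal, used only for limma. Across the 3 deposited tables, 9 columns of per-sample values matched the labels of no sample and were not used here.

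Gene counts were rounded. All 30 libraries were fitted in 1 model with a mean per day (R 4.3.3, edgeR 4.0.16, filterByExpr with a minimum count of 10 and total of 15, TMM, quasi-likelihood F test, Benjamini-Hochberg over 19897 genes, threshold 0.05). A second fit gave replicate 2 of D10 and D12 means of their own, so that each lone library is assumed to vary like the replicates of the other days. SE is the log2 change divided by the root of F. Alternatives used DESeq2 1.42.0, limma 3.58.1 on log2 of the deposited CPM plus 1 or 0.1, other filters and scalings, 18 or 6 libraries, blocks, and each library left out. Transcript CPM used the same library sizes and was not tested. Promoters came from the RefSeq table (250 bases before a start).

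In simulated counts for 19571 genes, the 3-replicate test recovered 57% of genes changed by 1 and 94% of those changed by 2 on the log2 scale, the test on replicates 1 and 3 recovered 30% and 86%, and the test of the difference 51% at 2 and 80% at 3. These counts were drawn independently with the trended dispersion, without gene-wise spread around it and without a separate set for replicate 2. Only genes averaging at least 1 CPM were changed, so the rates hold for that setting and not for the data as they are. Library totals of 17397947 to 22090186 counts limit the genes below 1 CPM most.

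Deviations from the day means correlated across D12 and D10 at 0.175, 0.449 and 0.2 for replicates 1, 2 and 3, and replicates 1 and 3 crossed at 0.206 and 0.193. These values tell replicate 2 apart but cannot show that the numbers pair replicates 1 and 3. The main fit held no replicate block, and fits with one are given as alternatives.

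The comparison and the 33 gene lists were chosen with earlier results of these data known. Genes were named as the 15 largest rises and 15 largest falls among called genes whose groups did not overlap and whose higher mean reached 10 CPM (predicted genes excluded), and in each list up to 6 called members, up to 3 called against the majority and the most abundant one not called; other list members are given as background.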

Additional observations from a re-analysis of the deposited data

How the results depend on the processing

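No alternative reversed the sign of a named gene that passed. Of the list members called, 49 were higher and 34 lower as reported, 26 and 29 with library size alone, 46 and 60 with 6 libraries, and 93 and 113 with the replicate block in 6 libraries. Of 90 named genes that passed, 22 did so whichever of the 6 libraries was left out, among them Dhrs3, Cyp26b1, Gli1, Rnf144b, mt-Cytb, Postn, Krt18, Eno2 and Otx2, and 15 lost the call with any library left out, among them Egln3, Hk2, Bhlhe40, Hmox1 and Pmel. The 878 calls over 3 replicates became 436 with library size alone, 1593 with DESeq2, 485 without a filter, 1723 with 18 libraries of D10 to D25, 1798 with the replicate block in 6 libraries, 2233 with replicate 2 as a term in 18 libraries, and 133 to 492 with a library left out. The block in all 30 libraries gave 897, of which 799 were among the 878, and kept 83 of the 90 named calls, while the block in 6 libraries kept 83 of the 88 it tested. In replicates 1 and 3 the 215 calls became 60 with library size alone, 769 with DESeq2, 411 with limma on CPM plus 1, 603 with 18 libraries, 1465 with 6 libraries, and 0 to 18 with a library left out. The test of the difference gave 9 genes with DESeq2, 4 and 1 with limma on CPM plus 1 and 0.1, 4 with 6 libraries, and 0 to 2 with a library left out. The 3044 genes 2-fold apart in replicate 2 became 7301 without a filter and 1527 with 6 libraries, alternatives added after seeing the data. Of the members of the 33 lists, 83 were called as reported, 55 with library size alone, 131 with DESeq2, 127 with 18 libraries, 206 with the replicate block in 6 libraries, 173 with replicate 2 as a term, 28 in replicates 1 and 3, and 20 to 47 with a library left out. The causes of these moves were not tested. Fewer libraries mean fewer residual degrees of freedom, and genes below 1 CPM rest on few counts.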
